A study of Cavia porcellus with 10 samples.

Results

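The respiratory chain of the mitochondrion is built from proteins of 2 genomes, and the genes described here are those of the nuclear genome. They were chosen by name: genes starting with NDUFA, NDUFB, NDUFC, NDUFS, NDUFV, UQCR, ATP5 or COX4 to COX8, together with SDHA, SDHB, SDHC, SDHD and CYC1. The rule found 72 of the 25028 genes in the table. Of these, 29 encode subunits of complex I, 3 of complex II, 8 of complex III, 15 of complex IV and 9 of complex V, and 8 encode assembly factors or related proteins (NDUFAF1 to NDUFAF6, COX7A2L and ATP5SL). Some subunits had no gene listed under their name, among them SDHD, COX6A1, COX8B, COX8C, ATP5E, ATP5G1 and ATP5G3, and these were not analysed here.

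RNA was sequenced from the vaginal portion of the cervix of 10 Hartley guinea pigs, 1 animal per library. The non-pregnant (NP, n = 3) animals were taken in estrus, on the day after the vaginal membrane had opened. The mid-term (MT, n = 3) animals were at 43.6 ± 0.5 days of gestation and the late-term (LT, n = 4) animals at 65.2 ± 1.2 days and not in labor. No animal received a treatment, Hartley is an outbred strain, and the ages of the females were not given in the sources used here.

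Complexes I and II pass electrons from NADH and succinate to ubiquinone, complex III hands them on to cytochrome c, and complex IV transfers them to oxygen. Complexes I, III and IV pump protons while doing so, and complex V, the ATP synthase, uses the gradient to make ATP. Several complex IV subunits have a second gene whose product replaces the common form in particular tissues, such as muscle, lung or testis, so that the enzyme differs between tissues. The cervix is a tissue of collagen, fibroblasts, smooth muscle and epithelium that is remodeled during pregnancy and softens before birth.

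The reads counted on genes numbered 18730665 to 27881572 per library, of which 119324 to 227114 fell on the 72 genes. All values below are TPM, a transcript level scaled to gene length and to the library total. The 6 genes fixed as markers of cervix and reproductive tract (ESR1, PGR, HOXA11, HOXA13, EMX2 and PAX8) were all measured, with summed levels of 489.6 to 738 (NP), 483 to 580.1 (MT) and 222 to 314 TPM (LT), and 4 of them were lower from MT to LT and 5 from NP to LT. Of 4 endothelial markers, 1 was lower in MT than in NP and 3 were lower in LT than in MT (summed level 79.2 to 116 (NP), 62.6 to 89.7 (MT) and 35.4 to 52.3 TPM (LT)). Of 3 glandular markers, 3 were higher in MT than in NP (279 to 429 TPM in NP and 837 to 1552 TPM in MT). The summed level of 6 smooth muscle markers was 6698 to 20483 (NP), 9433 to 14698 (MT) and 12928 to 22853 TPM (LT), with overlap between stages, and 1 of the 6 was called higher from MT to LT and from NP to LT (medians 0.62 and 0.74). The summed level of 4 squamous epithelium markers was 1061 to 3450.1 TPM in the NP animals and did not overlap between the MT animals (208 to 1353 TPM) and the LT animals (1640 to 3214 TPM). The step to late term had a median of 1.94 over these markers (log2), and 1 of them was called higher. From MT to LT 1 of 5 stromal markers was higher and 2 lower, and none of 5 leukocyte markers was called. Of 5 fat markers, 1 passed the filter. Among all genes tested, 6.27% were higher and 12.2% lower from NP to MT, and 6.73% and 22.7% from MT to LT. From NP to LT 11.2% were higher and 41.9% lower. The part of these cell types in the results was not tested, and in whole tissue fewer cells of a type and less RNA per cell cannot be told apart.

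Transcripts of complexes I to V made up a growing part of the measured RNA from NP to MT to LT. Their summed level was 12803, 13221 and 14026 TPM in the NP animals, 14604, 14191 and 15858 TPM in the MT animals and 16935, 16626, 17187 and 16274 TPM in the LT animals. The stages did not overlap in this sum, and the mean increased 1.11-fold from NP to MT, 1.13-fold from MT to LT and 1.26-fold from NP to LT. The sum went from 13349.8 ± 622 TPM (SD, n = 3) to 14884 ± 868 TPM (n = 3) and 16756 ± 395 TPM (n = 4).

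**Figure D1:**
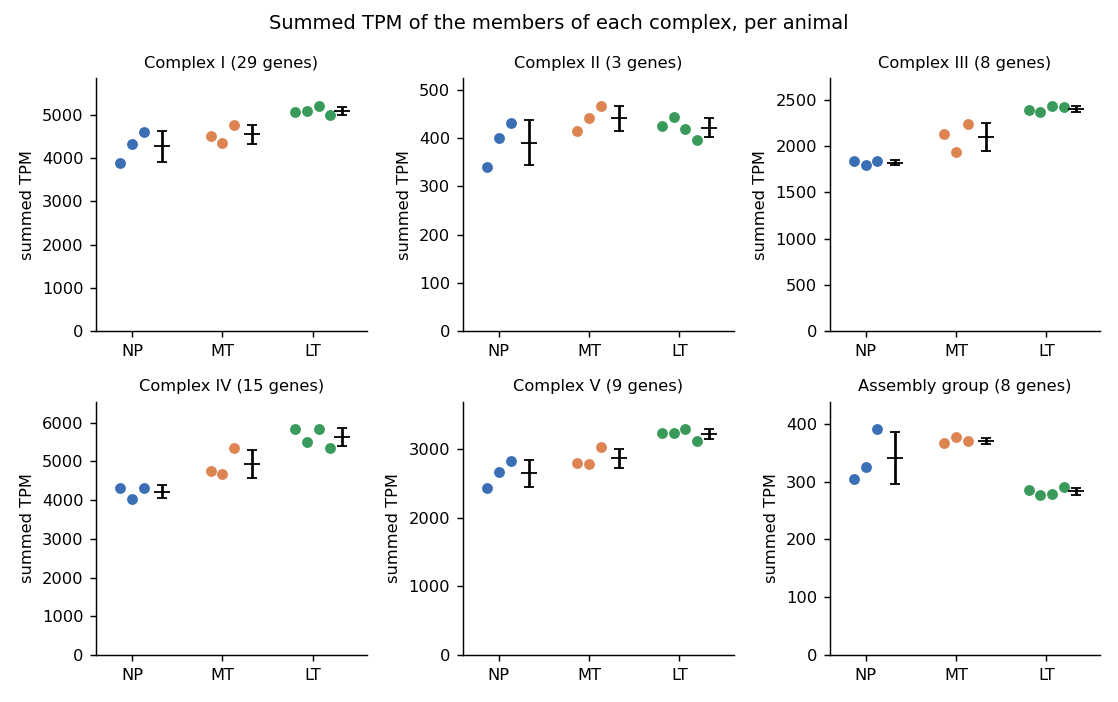
Summed level (TPM) of the genes of each complex in each animal, by stage (NP, MT, LT), with points for animals and a mark for the mean ± SD. Complex IV has the same order of stages as complex III, while complex II does not separate the stages and the assembly group, most of which is COX7A2L, is lowest in LT (283 ± 6.10 TPM).

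The complexes did not share 1 course on the TPM scale. Complex III had the clearest separation, at 1819 ± 24.1 TPM in NP (SD, n = 3), 2098 ± 153 TPM in MT (n = 3) and 2403 ± 32.4 TPM in LT (n = 4), with no overlap between stages. Complex IV went from 4220.3 ± 162 TPM to 4935 ± 367 TPM and 5632 ± 239 TPM, although the lowest LT animal (5357 TPM) lay only just above the highest MT animal (5356 TPM). Complexes I and V overlapped between NP and MT and were higher in every LT animal than in any MT animal, with LT means of 5086 ± 94.97 TPM and 3214 ± 74.4 TPM. Complex II did not follow them, at 390.5 ± 45.9 (NP), 441 ± 25.9 (MT) and 421 ± 19.6 TPM (LT). The assembly group was lower in every LT animal (276.7 to 290.2 TPM) than in any MT animal (366 to 376 TPM). Most of this sum was COX7A2L, and without it the other 7 genes overlapped, at 124 to 133 TPM in the MT animals and 116 to 126 TPM in the LT animals.

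Gene by gene, 70 of the 72 members passed the filter on low values and were tested with limma, and a member was called where its Benjamini-Hochberg adjusted p, over all 12645 genes tested, was below 0.05. COX6A2 and COX7B2 did not pass the filter. From NP to MT 4 members were higher and 1 was lower, against 6.27% higher and 12.2% lower among all genes tested. From MT to LT 18 were higher and 3 lower (6.73% and 22.7% of all genes), and from NP to LT 34 were higher and 4 lower (11.2% and 41.9% of all genes). The 3 comparisons share animals, so their counts are not independent of each other. The count of higher members from NP to MT fell to 2 without NP replicate 2, without MT replicate 2 or without MT replicate 3. In these fits 5.45%, 5.21% and 3.81% of all genes were higher. From MT to LT the count was 9 without MT replicate 1, 6 without MT replicate 2 and 10 without LT replicate 2. It was 8 without LT replicate 3 and 9 without LT replicate 4. In the same order 6.09%, 2.95%, 4.45%, 4.25% and 4.81% of all genes were higher, so calls were lost among all genes too.

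The median log2 fold change of the members was 0.11 from NP to MT, 0.16 from MT to LT and 0.26 from NP to LT, where the medians over all genes tested were −0.14, −0.16 and −0.28. TPM values are shares of a fixed total, and rescaling them by the median ratio over genes brought the medians over all genes to within 0.03 of 0. On that scale the medians of the members were 0.25, 0.35 and 0.58. There, 18 members were higher and 1 lower from NP to MT, 38 and 3 from MT to LT and 61 and 2 from NP to LT, where 10.9%, 14.6% and 26.3% of all genes were higher. Between the TPM scale and the median-ratio scale, the median of complex II from MT to LT changed sign from −0.07 to 0.12 and that of the assembly group from −0.11 to 0.06. The split over all genes from NP to LT went from 1417 higher and 5301 lower on the TPM scale to 3330 higher and 2955 lower on the median-ratio scale. On the TPM scale the member median from NP to MT was 0.06 without NP replicate 1, 0.18 without NP replicate 3 and 0.07 without MT replicate 3.

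Counted without a model, 16 of the 62 tested subunits of complexes I to V had every MT animal above every NP animal, against 11.4% of all genes tested. LT lay wholly above MT for 29 of them (10.8% of all genes) and wholly above NP for 38 (11.8%). The reverse order, with the later stage wholly below, was found for 2 of them from NP to MT (23.5% of all genes), 1 from MT to LT (35.5%) and 2 from NP to LT (40.6%). The members are short genes, with a median length of 37.1% of that of all genes tested, and short genes stood higher in the LT libraries (slopes of −0.027 to −0.015 per doubling of length) than in the others (0.003 to 0.031). With this trend removed, 4 members were higher from NP to MT, 12 from MT to LT and 29 from NP to LT (6.29%, 6.31% and 10.6% of all genes), and the member median from MT to LT was 0.11 (log2).

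**Figure D2:**
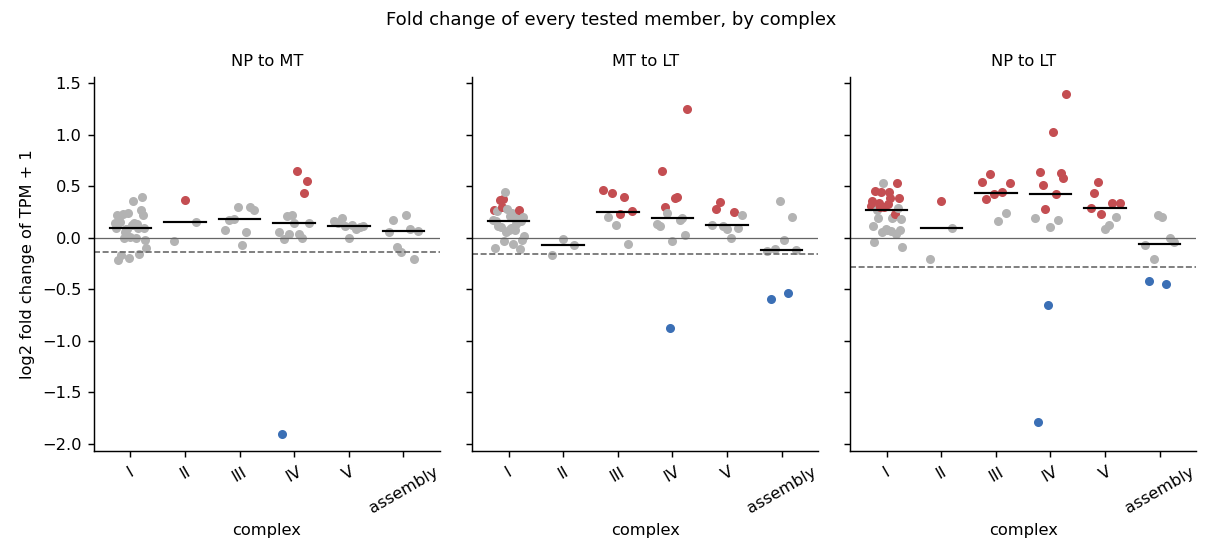
Log2 fold change of each tested member, grouped by complex, in the 3 comparisons. Red points were called higher, blue points lower and grey points were not called, the black bar is the median of the complex and the dashed line is the median of all genes tested, below 0 in each comparison.

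Within complex I, no member was called from NP to MT, 5 of 29 were higher from MT to LT and 13 of 29 were higher from NP to LT, and none was lower. With the length trend removed the MT to LT count was 2. It was 9 without NP replicate 1, 2 without MT replicate 1 or LT replicate 2, and 1 without MT replicate 2, LT replicate 3 or LT replicate 4. After median-ratio scaling the counts were 7, 17 and 28. Median log2 fold changes were 0.10, 0.17 and 0.27, and 0.24, 0.35 and 0.60 after that scaling. The first of these, 0.10, was 0.05 without NP replicate 1 and 0.18 without NP replicate 3. Outside the catalytic core, which carries the flavin, the iron-sulfur clusters and the quinone site, 11 of 22 subunits were higher from NP to LT. NDUFS8 (an iron-sulfur subunit) was higher in LT than in NP by a log2 fold change of 0.39 (limma, adjusted p = 0.00228). NDUFS3 was higher by 0.23 (limma, adjusted p = 0.0451), a call lost in 11 of the alternatives, among them the loss of any 1 animal other than NP replicate 3 or MT replicate 3 (adjusted p from 0.0518 without MT replicate 1 to 0.145 without NP replicate 2). Of the core subunits, NDUFV1, NDUFV2, NDUFS1 and NDUFS7 were not called in any comparison.

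The most abundant complex I transcripts encode accessory subunits of the membrane arm. NDUFA3 (ENSCPOG00000021937) stood at 372, 441 and 412 TPM in NP, 445, 469.7 and 487 TPM in MT and 498, 543, 631 and 571 TPM in LT. Each LT animal was above each MT animal and each MT animal above each NP animal. The LT level exceeded the NP level by 0.46 (log2; limma, adjusted p = 0.00383). NDUFB4 was not called, at 307 to 408 (NP), 285 to 312 (MT) and 361 to 373 TPM (LT), where NP animal 3 lay above all LT animals.

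Complex II, which is also the succinate dehydrogenase of the citric acid cycle, was represented by 3 genes. SDHB (ENSCPOG00000008491), the iron-sulfur subunit, stood at 126, 125 and 127 TPM in NP, 143, 163 and 185 TPM in MT and 158, 161, 167 and 160.5 TPM in LT. Every pregnant animal was above every NP animal. SDHB was higher in MT than in NP by 0.37 (log2; limma, adjusted p = 0.0245) and higher in LT than in NP by 0.36 (limma, adjusted p = 0.00715). The first of these calls was lost in the fit of those 2 stages alone (adjusted p = 0.0975) and without NP replicate 2 (0.0723), NP replicate 3 (0.0552), MT replicate 2 (0.0626) or MT replicate 3 (0.0851). SDHA, the flavoprotein partner of SDHB, was not called, with ranges of 81.8 to 116 (NP), 94.8 to 106 (MT) and 80.9 to 95.1 TPM (LT). SDHA amounted to 82.3% ± 15.1 of the SDHB level in NP (SD, n = 3), 61.7% ± 6.91 in MT (n = 3) and 55.1% ± 4.89 in LT (n = 4). The membrane anchor SDHC was not called either, at 133 to 191 (NP), 172 to 183 (MT) and 155 to 188 TPM (LT). The medians of the 3 genes were 0.16 from NP to MT, −0.07 from MT to LT and 0.09 from NP to LT. After median-ratio scaling they were 0.30, 0.12 and 0.42. On that scale 1, 0 and 2 of the 3 genes were higher, where 10.9%, 14.6% and 26.3% of all genes were higher.

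In complex III, none of 8 genes was called from NP to MT, 5 were higher from MT to LT and 6 were higher from NP to LT, with medians of 0.18, 0.25 and 0.44. The MT to LT count was 2 without MT replicate 2 and 3 without MT replicate 1 or any 1 LT animal, and after median-ratio scaling the counts were 3, 6 and 8 and the medians 0.32, 0.43 and 0.76. CYC1 (ENSCPOG00000013237), cytochrome c1, stood at 107, 112 and 106 TPM in NP, 110.4, 106 and 129 TPM in MT and 157, 167, 161 and 151 TPM in LT. NP and MT overlapped and all LT animals were higher. CYC1 was higher in LT than in MT by 0.47 ± 0.08 (log2 ± SE; limma, adjusted p = 0.00476). UQCRFS1, the Rieske iron-sulfur protein, had the same order, at 71.0 to 78.5 (NP), 70.5 to 85.5 (MT) and 99.8 to 104 TPM (LT), and was higher in LT than in MT by 0.39 (limma, adjusted p = 0.00772). These are the catalytic subunits of the complex that the nucleus encodes.

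Of the core proteins of complex III, UQCRC1 was higher in LT than in NP by 0.42 (limma, adjusted p = 0.00313), at 91.8 to 105 (NP), 114 to 135 (MT) and 125 to 145 TPM (LT). UQCRC2 stood at 97.4 to 103 (NP), 92.7 to 96.4 (MT) and 106 to 118 TPM (LT). Its higher level in LT than in MT (log2 fold change 0.23; limma, adjusted p = 0.029) was not called without MT replicate 1 (adjusted p = 0.0569), MT replicate 2 (0.0982), MT replicate 3 (0.0679), LT replicate 1 (0.0651) or LT replicate 2 (0.0776).

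UQCRB, a small subunit near the quinone site, stood at 184 to 195 (NP), 187 to 248 (MT) and 259 to 328 TPM (LT) and was higher in LT than in NP by 0.62 (log2; limma, adjusted p = 0.00169). From MT to LT it was higher by 0.44 (limma, adjusted p = 0.0199), not called without MT replicate 2 (adjusted p = 0.0843), LT replicate 3 (0.0552) or LT replicate 4 (0.0529). The most abundant transcripts of the complex were those of UQCR10 and UQCRH. UQCRH, the hinge protein, was not called, at 388 to 498 (NP), 522 to 573 (MT) and 498 to 542 TPM (LT). UQCR10 was at 414 to 591 (NP), 494 to 598 (MT) and 607 to 676 TPM (LT), and its higher level in LT than in NP (0.37; limma, adjusted p = 0.0276) was not called with the length trend removed (adjusted p = 0.0866) or without NP replicate 2 (0.0893), NP replicate 3 (0.114), LT replicate 2 (0.0519) or LT replicate 4 (0.0676).

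**Figure D3:**
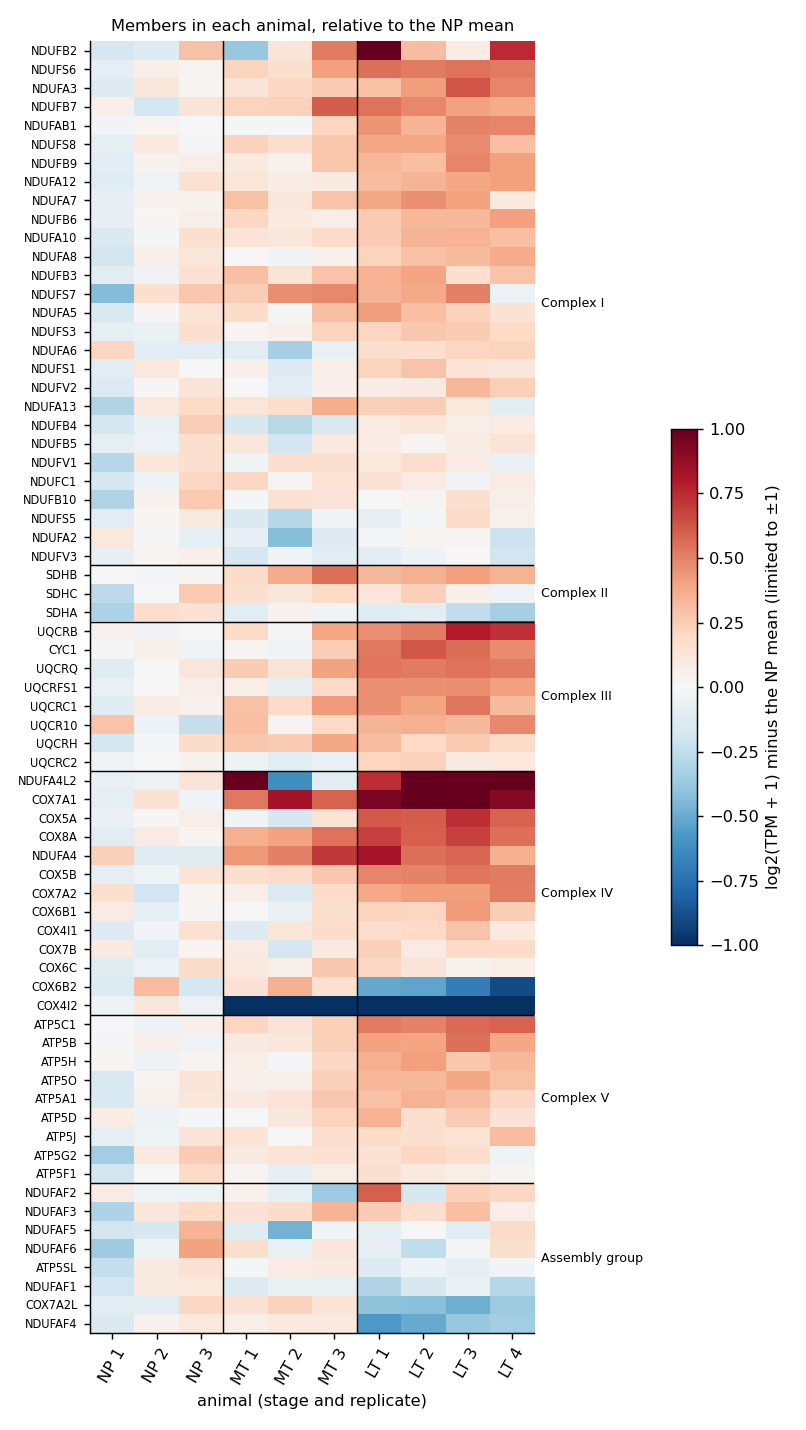
Level of the members in each animal, as log2(TPM + 1) minus the mean of the NP animals and limited to ±1 for color, with genes in rows by complex and animals in columns by stage. Most rows of complexes I, III, IV and V are red in the 4 LT columns, while COX4I2, COX6B2, COX7A2L and NDUFAF4 are blue there.

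Complex IV held both the members that increased most and the ones that decreased most. Of 13 genes tested, 3 were higher and 1 lower from NP to MT, 5 higher and 1 lower from MT to LT and 8 higher and 2 lower from NP to LT, with medians of 0.14, 0.20 and 0.43. The count of higher genes from MT to LT was 2 without MT replicate 2 and 3 without MT replicate 1, MT replicate 3, LT replicate 2, LT replicate 3 or LT replicate 4, and the median of that step was 0.10 with the length trend removed. After median-ratio scaling the counts of higher genes were 4, 8 and 11 and the medians 0.28, 0.38 and 0.75. The NP to MT median of 0.14 was 0.08 without MT replicate 3. COX5A (ENSCPOG00000024832), a matrix-side subunit, stood at 229, 242 and 250.2 TPM in NP, 236, 215 and 265 TPM in MT and 368, 366, 401 and 362 TPM in LT. NP and MT overlapped, and the lowest LT animal was well above the highest of the other 6. COX5A was higher in LT than in MT by 0.65 ± 0.09 (log2 ± SE; limma, adjusted p = 0.00197) and higher in LT than in NP by 0.64 (limma, adjusted p = 0.000399). Both calls held under all alternatives.

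COX8A and NDUFA4 had another course, with the larger step between NP and MT. COX8A (ENSCPOG00000023489), a small membrane subunit, stood at 464, 533 and 512 TPM in NP, 642, 665 and 731 TPM in MT and 807, 761, 809 and 736 TPM in LT. The stages did not overlap. COX8A was higher in MT than in NP by 0.43 ± 0.09 (log2 ± SE; limma, adjusted p = 0.0115), which was not called with those 2 stages alone in the fit (adjusted p = 0.0584). NDUFA4 (ENSCPOG00000002216), named for complex I but a subunit of complex IV, stood at 975, 760.2 and 759 TPM in NP, 1115, 1169.8 and 1349 TPM in MT and 1463, 1207, 1238 and 1057 TPM in LT, the highest level of any member. All pregnant animals were above all NP animals, and MT and LT overlapped. NDUFA4 was higher in MT than in NP by 0.55 ± 0.15 (log2 ± SE; limma, adjusted p = 0.0285). This call was lost in the fit of those 2 stages alone (adjusted p = 0.0664) and without NP replicate 2 (adjusted p = 0.0963), NP replicate 3 (0.0861), MT replicate 2 (0.0601) or MT replicate 3 (0.107), whereas the difference between NP and LT (0.58; limma, adjusted p = 0.00592) was kept in every alternative.

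The alternative subunits of complex IV did not move together. COX4I2 (ENSCPOG00000010218), the form of subunit 4 known from lung, decreased at mid-term. Its level was 5.67, 6.47 and 5.65 TPM in NP, 0.833, 0.825 and 0.867 TPM in MT and 0.407, 1.29, 1.13 and 1.31 TPM in LT, from 55 to 67 reads per NP library, 7 to 10 per MT library and 5 to 17 per LT library. Every pregnant animal was below every NP animal. The MT mean was 0.142 times the NP mean, and the fitted log2 fold change was −1.91 ± 0.23 (SE; limma, adjusted p = 0.00107), which understates the change because 1 TPM was added before taking logs. COX4I2 was the only member to pass the filter through a single stage, NP, so its test is of a gene admitted by the stage where it was high, and with no filter the adjusted p (limma) was 0.000825. COX4I1, the common form, was not called, at 387 to 470.2 (NP), 387 to 481 (MT) and 453 to 514 TPM (LT). COX4I2 thus went from 1.41% ± 0.184 of the COX4I1 level in NP (SD, n = 3) to 0.192% ± 0.0206 in MT (n = 3) and 0.215% ± 0.0911 in LT (n = 4).

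COX6B2 (ENSCPOG00000009105), known as the testis form of subunit 6B, stood at 13.0, 18.1 and 12.6 TPM in NP, 16.1, 18.7 and 16.1 TPM in MT and 9.80, 9.70, 8.55 and 7.28 TPM in LT, from 37 to 77 reads per library. NP and MT overlapped and all LT animals were lower. COX6B2 was lower in LT than in MT by a log2 fold change of −0.87 ± 0.15 (SE; limma, adjusted p = 0.00401). From NP to LT it was also called (−0.65; limma, adjusted p = 0.00485), but not from the counts with edgeR (adjusted p = 0.0869) or DESeq2 (0.110). The common form COX6B1 stood at 558 to 634 (NP), 570.1 to 677 (MT) and 695 to 802 TPM (LT). Its higher level in LT than in NP (0.28; limma, adjusted p = 0.0304) was not called with the length trend removed (adjusted p = 0.0978) or without NP replicate 2 (0.120), NP replicate 3 (0.0647), LT replicate 3 (0.0817) or LT replicate 4 (0.0521). COX6B2 was 2.46% ± 0.673 of COX6B1 in NP (SD, n = 3), 2.78% ± 0.464 in MT (n = 3) and 1.22% ± 0.206 in LT (n = 4).

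COX7A1 (ENSCPOG00000014138), the muscle form of subunit 7A, stepped up at each stage. It stood at 8.82, 10.6 and 9.22 TPM in NP, 14.1, 17.7 and 14.8 TPM in MT and 19.3, 21.4, 22.5 and 18.9 TPM in LT, from 43 to 143 reads per library, with no overlap between stages. It was higher in MT than in NP by 0.65 (log2; limma, adjusted p = 0.00677) and higher in LT than in NP by 1.03 (limma, adjusted p = 0.000175). The step from MT to LT (0.38; limma, adjusted p = 0.0305) was not called with the length trend removed (adjusted p = 0.0928) or without MT replicate 1 (0.0976), MT replicate 3 (0.0926), LT replicate 2 (0.0745) or LT replicate 3 (0.0849). COX7A2, the common form, stood at 224 to 286 (NP), 232 to 289.9 (MT) and 332 to 365 TPM (LT), and was higher in LT than in NP by 0.43 (limma, adjusted p = 0.00676). COX7A1 amounted to 3.78% ± 0.847 of COX7A2 in NP, 6.0% ± 1.40 in MT and 5.97% ± 0.607 in LT (SD, n = 3, 3 and 4). Of 9 other genes of striated muscle, 3 passed the filter and none of them was called higher with limma, although edgeR called 1 of the 3 higher from NP to MT, and limma called 1 lower from MT to LT (median of the 3 genes −0.64). Their summed level was 25.8 to 32.5 TPM in the NP animals, 35.8, 139 and 37.2 TPM in the MT animals and 22.5 to 33.4 TPM in the LT animals, with the MT animals wholly above the NP animals. MT animal 2, the highest by far, also had the highest COX7A1 level of its stage, and without it COX7A1 was higher in MT than in NP by 0.56 (log2; limma, adjusted p = 0.0249). MB, myoglobin, was at 0 in all NP and MT animals. The part of striated muscle in the COX7A1 levels was not tested.

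NDUFA4L2 (ENSCPOG00000012842), a relative of NDUFA4 known as a gene induced in low oxygen, varied widely between animals of a stage. It stood at 38.4, 38.8 and 44.3 TPM in NP, 91.4, 26.1 and 37.6 TPM in MT and 68.3, 110.1, 160.5 and 112 TPM in LT. All LT animals were above all NP animals, and MT animal 1 lay within the LT range. NDUFA4L2 was higher in LT than in NP by 1.39 (log2; limma, adjusted p = 0.0123). The difference between MT and LT (1.25 ± 0.38 SE; limma, adjusted p = 0.035) was not called with no filter on low values (adjusted p = 0.0553), in the fit of those 2 stages alone (0.0541) or without MT replicate 2 (0.142), MT replicate 3 (0.105), LT replicate 2 (0.0689), LT replicate 3 (0.0885) or LT replicate 4 (0.0741). COX6A2, the muscle form of subunit 6A, had 0 to 14 reads per library and COX7B2 had 0 to 3.

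**Figure D4:**
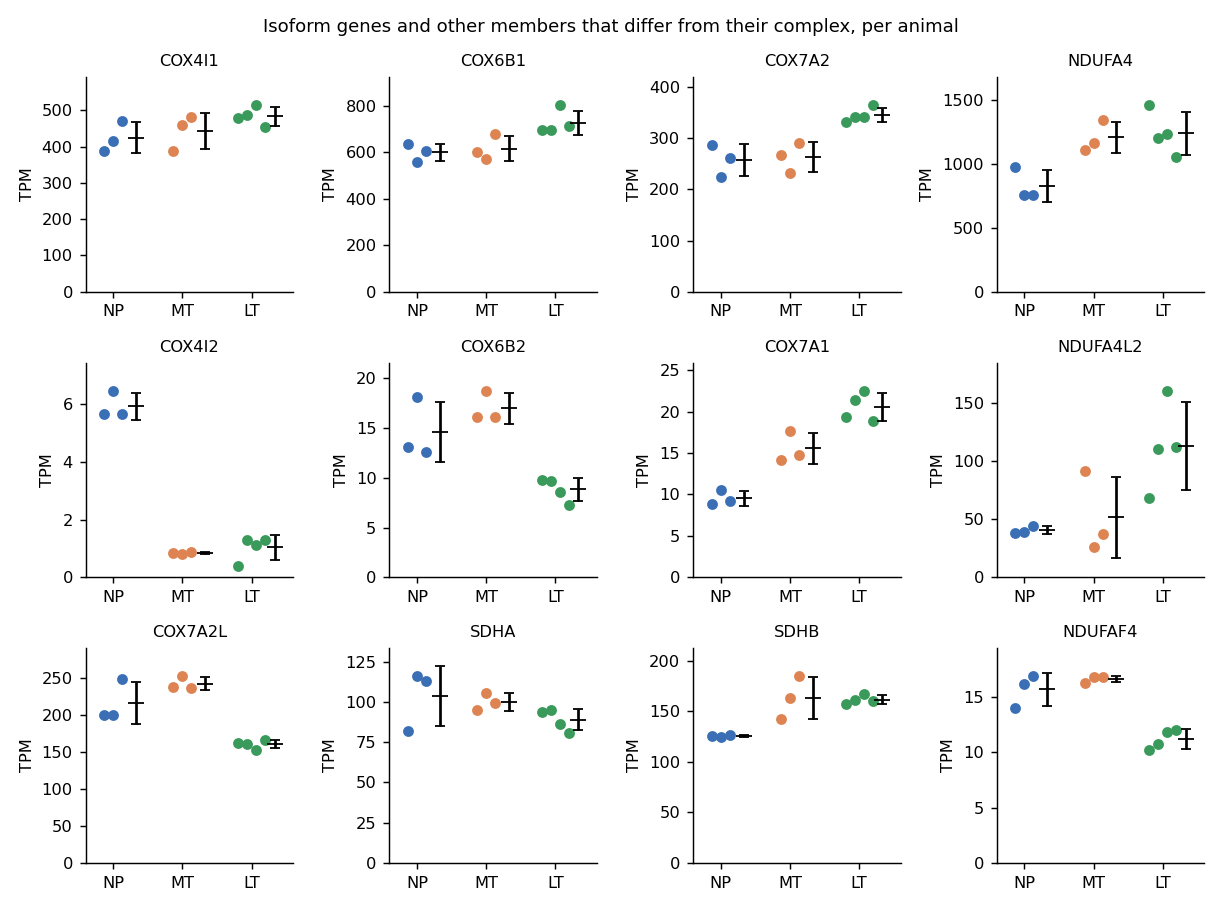
Level (TPM, axis from 0 in each panel) of 12 genes in each animal by stage, with points for animals and a mark for the mean ± SD. COX4I2 is high in NP alone, COX6B2, COX7A2L and NDUFAF4 are lowest in LT, and COX7A1 steps up at each stage.

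For complex V, none of 9 genes was called from NP to MT, 3 were higher from MT to LT and 6 were higher from NP to LT, with medians of 0.11, 0.13 and 0.29. The MT to LT count was 1 without MT replicate 1, MT replicate 2 or LT replicate 3, and after median-ratio scaling the counts were 2, 7 and 9 and the medians 0.25, 0.31 and 0.61. The NP to MT median of 0.11 was 0.07 without MT replicate 3. The 4 listed genes of the F1 head and central stalk, the part that makes ATP, were all called higher from NP to LT. So were 2 of the 4 listed genes of the peripheral stalk. ATP5B (ENSCPOG00000023092), the catalytic beta subunit, stood at 519, 544 and 510.4 TPM in NP, 558, 568 and 617 TPM in MT and 693, 688, 767 and 685 TPM in LT. The stages did not overlap, and ATP5B was higher in LT than in NP by 0.43 (log2; limma, adjusted p = 0.00157). From MT to LT the difference (0.28; limma, adjusted p = 0.0237) was not called without MT replicate 1 (adjusted p = 0.0741), MT replicate 2 (0.0809) or LT replicate 3 (0.0679). ATP5G2, which encodes the ring that turns in the membrane, was not called, at 368 to 559 (NP), 499.6 to 522 (MT) and 455 to 541 TPM (LT).

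In the assembly group COX7A2L and NDUFAF4 were lower at late term. None of the 8 genes was called from NP to MT, and these 2 were lower both from MT to LT and from NP to LT, where 22.7% and 41.9% of all genes tested were lower. After median-ratio scaling 3 of the 8 were higher from NP to LT and none lower, beside 26.3% higher among all genes. The median of that step was 0.25, against −0.06 on the TPM scale. COX7A2L (ENSCPOG00000014953), which tethers complexes III and IV in supercomplexes, stood at 200.4, 200.4 and 249 TPM in NP, 239, 253 and 237 TPM in MT and 163, 161, 153 and 167 TPM in LT. All LT animals were below all others. COX7A2L was lower in LT than in MT by a log2 fold change of −0.59 ± 0.09 (SE; limma, adjusted p = 0.00298), a call kept under all alternatives. Against COX7A2, from which it differs in role but not in family, it was at 85.0% ± 13.3 in NP, 93.2% ± 14.0 in MT and 46.7% ± 1.8 in LT (SD, n = 3, 3 and 4).

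NDUFAF4 (ENSCPOG00000007618), a complex I assembly factor, stood at 14.0, 16.1 and 16.9 TPM in NP, 16.3, 16.8 and 16.8 TPM in MT and 10.2, 10.8, 11.8 and 12.1 TPM in LT, again with all LT animals lowest, and was lower in LT than in MT by −0.53 (log2; limma, adjusted p = 0.00542). From NP to LT the lower levels of COX7A2L (−0.42; limma, adjusted p = 0.00363) and NDUFAF4 (−0.45; limma, adjusted p = 0.0042) were not called after scaling by median ratios, where they came to −0.09 (adjusted p = 0.402) and −0.15 (adjusted p = 0.198).

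Over the 10 animals the members of a complex varied together to different degrees. The median Pearson correlation of log2(TPM + 1) between members was 0.75 in complex III, 0.73 in complex V, 0.50 in complex IV, 0.49 in complex I, 0.36 in complex II and 0.22 in the assembly group. The members with the lowest median correlation to the others were COX4I2 (−0.53), COX6B2 (−0.53), NDUFAF4 (−0.53) and COX7A2L (−0.49). These values are a description over animals of 3 stages and include the differences between stages.

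Other mitochondrial genes did not all have the same course from MT to LT. Of 4 genes of the mitochondrial genome (ND2, ND3, ND5 and ND6), none was called, with a median log2 fold change of −0.19, which was −0.01 after median-ratio scaling. Among all genes tested, 6.73% were higher in this step. Of 11 genes of the citric acid cycle 1 was higher (median 0.06), and of 69 mitochondrial ribosomal proteins 6 were higher and 1 lower (0.09). Of 19 genes of mitochondrial import 2 were higher and 1 lower (0.02), and of 11 genes of pyruvate dehydrogenase 2 were higher and 2 lower (0.12). Of 30 assembly factors outside the naming rule 3 were lower (−0.05), but after median-ratio scaling 7 were higher and none lower. On that scale the higher genes also numbered 6 of 11 in the citric acid cycle, 31 of 69 among mitochondrial ribosomal proteins and 6 of 19 in import. None of these was lower, and 14.6% of all genes were higher. Of 16 regulators of mitochondrial biogenesis 4 were lower and none higher (−0.26), beside 22.7% lower among all genes tested, and after median-ratio scaling 2 were lower and 1 higher (−0.08).

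Glycolysis genes had the highest median of these lists from MT to LT. Of 14 tested, 9 were higher from MT to LT and none was lower (0.82). LDHA, lactate dehydrogenase A, was at 308 ± 42.7 (NP), 287 ± 81.3 (MT) and 932 ± 232 TPM (LT), higher in LT than in MT by 1.70 (limma, adjusted p = 0.00206). GAPDH was listed near 0 and was not among them. Of 54 cytosolic ribosomal proteins, 33 were lower from MT to LT and none was higher (median −0.36), beside 22.7% lower among all genes tested. After median-ratio scaling 11 were lower (median −0.17), beside 1868 of all 12645 genes tested.

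**Figure D5:**
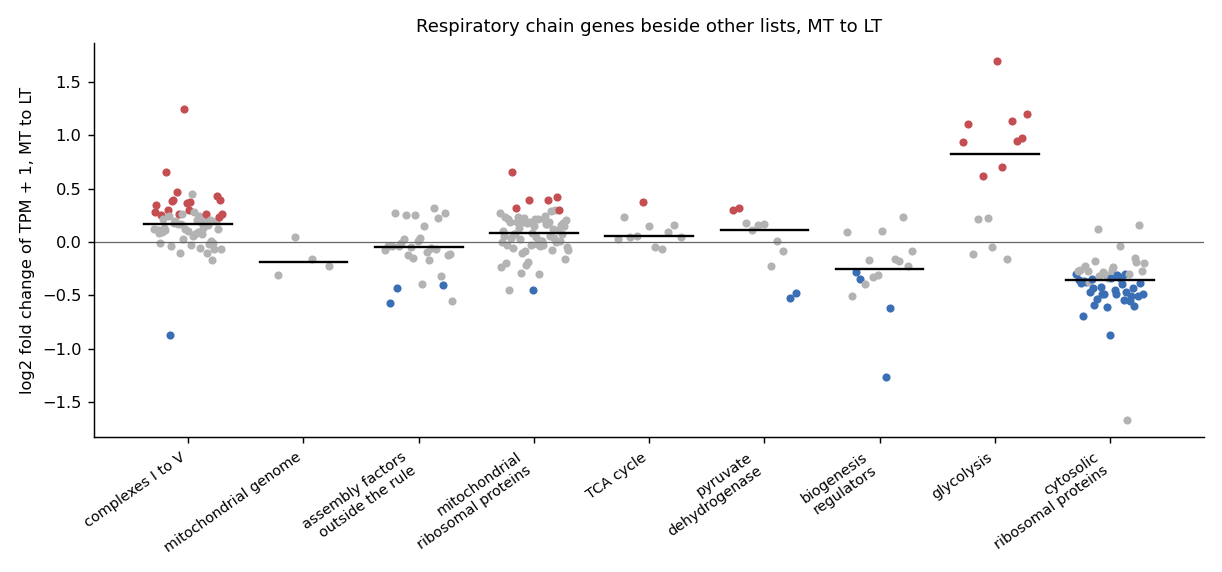
Log2 fold change from MT to LT of single genes of complexes I to V and of 8 other lists. Points are genes, red where called higher, blue where called lower and grey where not called, and the bar is the median. Among the lists drawn, glycolysis has the highest median (0.82) and cytosolic ribosomal proteins the lowest (−0.36).

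Among the 11 genes of the pyruvate dehydrogenase list, 1 was higher and 2 were lower from NP to MT (6.27% and 12.2% of all genes), and none was lower after median-ratio scaling or with edgeR or DESeq2. The higher one was PDK4, a kinase that shuts down pyruvate dehydrogenase and so limits the entry of pyruvate into the citric acid cycle. It was at 14.0, 17.4 and 26.3 TPM in NP, 65.1, 155 and 133 TPM in MT and 100.1, 102, 108 and 107 TPM in LT. All pregnant animals were above all NP animals, and PDK4 was higher in MT than in NP by 2.51 (log2; limma, adjusted p = 0.00105). ND5 of the mitochondrial genome was higher in MT than in NP by 0.70 (limma, adjusted p = 0.00677), at 2491 ± 354 TPM and 4024 ± 380.3 TPM. PDK4, ND5 and LDHA were picked from their lists after their values were seen.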

How the data were processed

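Strand-specific libraries were sequenced from 1 end, and the reads were aligned with TopHat2 to the guinea pig genome cavPor3 and counted per Ensembl gene with HTSeq 0.5.4p1 by the authors, whose processing notes also name CASAVA 1.8.2. The deposited table gives raw read counts per gene and TPM values that the authors computed from them, for 10 animals. TPM was used for the main results and counts for alternatives. The strand setting of the counting and the handling of multi-mapped reads were not given in the sources used here, so that levels of genes with near-identical copies are uncertain.

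Genes whose stage mean reached 3 TPM in any stage were tested as log2(TPM + 1) with limma 3.58.1 (trend, R 4.3.3), in 1 fit of the 10 animals. Fold changes are on this log2 scale and understate changes of low genes. P-values measure the spread between animals. Calls used a Benjamini-Hochberg adjusted p below 0.05. Genes were named as the 2 most abundant of complexes I, III, IV and V, all complex II genes, core subunits, isoforms and up to 4 called members per direction and comparison. Alternatives were another pseudocount, a square root, no filter, median-ratio scaling, removal of the length trend, 2 stages alone, a replicate block, each animal left out, edgeR 4.0.16 and DESeq2 1.42.0 on the counts. The code was tested on simulated data. The members and gene lists were chosen with earlier results of these data known. No genome of this build was used, so no coordinates or sequences are given. The values of 1 member by itself are not reported here, and its row is left out of the heat map.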

Additional observations from a re-analysis of the deposited data

Results flagged for a closer look

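Among the 70 members tested, 4 had 1 LT animal far from the other 3, judged by the gap to its neighbor as a share of the range. Chance flags about 1 in 20 groups. LT animal 3 was high for ATP5B (767 TPM, others 685 to 693 TPM), COX5A (401 TPM, others 362 to 368 TPM) and COX6B1 (802 TPM, others 695 to 711 TPM). LT animal 4 was low for NDUFA2 (102 TPM, others 117 to 119.9 TPM). Without LT replicate 3 the higher levels of ATP5B from MT to LT (adjusted p = 0.0679, limma) and COX6B1 from NP to LT (adjusted p = 0.0817, limma) were not called, and COX5A remained called in both comparisons with LT.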

How the results depend on the processing

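Of 722 recomputed calls of named members, 649 were kept, 73 fell below the threshold and none changed direction. The counts of members called depended on the scale and on the method of testing. Higher members from NP to MT numbered 4 in the analysis above, 18 with median-ratio scaling, 16 with edgeR, 29 with DESeq2 and 1 with only those 2 stages fitted, where 10.9%, 10.1%, 13.1% and 3.99% of all genes were higher. From MT to LT they numbered 18, and 38, 39 and 44 with median-ratio scaling, edgeR and DESeq2 (14.6%, 13.4% and 17.4% of all genes). From NP to LT they numbered 34, and 61, 59 and 60 (26.3%, 23.6% and 26.2% of all genes), and lower members numbered 4, and 2, 1 and 1. The pseudocount of 0.1, the square root and the absence of a filter left every count within 1.5 times. With 1 animal left out, the higher members ranged from 2 to 5 (NP to MT), 6 to 23 (MT to LT) and 29 to 34 (NP to LT). The shares of all genes higher ranged from 3.81% to 7.18%, 2.95% to 9.72% and 9.16% to 11.2%. Members lower from NP to LT ranged from 4 to 6, where 4076 to 6365 of all genes tested were lower. Of the recomputed medians of the complexes, 262 stayed within the spread between animals and 62 moved further, 52 of them under median-ratio scaling, edgeR or DESeq2.

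Animals with the same replicate number were not shown to be paired. The correlations of their deviations were 0.25, 0.16 and 0.076 for NP and MT, −0.15, −0.017 and 0.074 for MT and LT and −0.29, 0.15 and −0.17 for NP and LT. With the replicate number as a block, 3 members were higher from NP to MT, 5 from MT to LT and 31 from NP to LT. In that fit 4.97%, 3.27% and 9.10% of all genes were higher. LT replicate 4 shares its number with no other animal, so it did not contribute to these comparisons.

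The ratio of COX4I2 to COX4I1, an alternative added after the data were seen, fell by 1.97 (log2, NP to MT) with a pseudocount of 1 and by 2.74 with 0.1. Depth limits COX4I2, with 5 to 17 reads per LT library, and COX6A2 and COX7B2.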
